A study of Mus musculus with 29 samples.

Results

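The cytosolic ribosomal protein genes encode the protein part of the ribosome that translates nuclear mRNAs. Genes named Rpl encode proteins of the large subunit and genes named Rps those of the small subunit, and the cell needs most of them in equal amounts. Their mRNAs are short, abundant and mostly begin with a run of pyrimidines, the 5' terminal oligopyrimidine (TOP) motif, through which the kinase complex mTORC1 controls their translation. In neurons, translation is needed to turn an experience into a lasting memory, and ribosomal protein mRNAs are also found in dendrites and axons.

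Members were the protein-coding genes with a ribosomal protein name in the deposited gene tables, without ribosomal protein S6 kinases and named pseudogenes. There were 83 of 15672 genes listed in any table. The name rule also took in Rps19bp1, whose product binds a ribosomal protein but is not one, and the paralogues Rpl22l1, Rpl7l1, Rpl36al and Rps27l. In each comparison 81 to 83 members were listed, since the tables hold only genes with a base mean of about 10 or more. Rps27 was listed in 1 table, ACC after context plus shock, and Rps13 in all but the table of ACC after context.

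The samples were 29 RNA-seq libraries from male mice of a strain labelled C56BL/6, aged 3 months and housed singly. In contextual fear conditioning a mouse learns that a chamber is where it was shocked. In hippocampal CA1, a field needed for forming contextual memory, there were 5 libraries of naive mice, 5 taken 1 h after the new context alone and 4 taken 1 h after context plus a 0.7 mA footshock. In the anterior cingulate cortex (ACC), which is used in recalling older memories, there were 5 of naive mice, 5 taken 4 weeks after context and 5 taken 4 weeks after context plus shock. How long the naive mice of ACC were kept is not in the labels, so that training and a wait of 4 weeks cannot be told apart. Region and time after training also change together.

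The authors' tables compare each trained group with the naive mice of its region. They hold 15115 to 15455 genes, with 1 base mean, 1 log2 fold change and 1 adjusted p per gene, so that no level can be shown per mouse. Both comparisons of a region share their naive libraries. Region markers went with the labels on base means normalised separately: in the authors' deposited context tables Fibcd1, a CA1 marker, was 31.7 times as high in CA1, and Lamp5, a cortical marker, was 4.80 times as high in ACC. The ACC table also held more of the striatal gene Adora2a (5.64 times the CA1 base mean). In bulk tissue, fewer cells of a type and less RNA per cell cannot be told apart.

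The start of the transcript is where these genes share a feature that the rule did not use. RefSeq promoter sequences of the build GRCm38.p6 were matched by symbol for 61 members. A C followed by at least 4 pyrimidines stood at the annotated first base in 13 of them (21.3%), against 3.01% of 27025 genes in the table. With the run allowed to begin within 5 bases of that start, it was found in 29 members (47.5%) and in 21.2% of all genes. The letters CCGGAA, searched on both strands from 250 bases before to 50 after the start, were in 34 members (55.7%) and in 16.7% of all genes. The letters AAGATGGC, searched likewise, were in 6 members (9.84%) and 3.19% of all genes. A match describes letters and is not evidence of a bound factor. The lines that follow show 20 bases before and 20 bases from the annotated start, in the gene's 5' to 3' direction, with a pyrimidine run that begins within 5 bases of the start in capitals. They were chosen to set starts with a run beside starts without one, among genes that moved in different ways.
Rps21 (chr2:180257359-180257398, plus strand): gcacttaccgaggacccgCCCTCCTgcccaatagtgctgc
Rps18 (chr17:33955646-33955685, minus strand): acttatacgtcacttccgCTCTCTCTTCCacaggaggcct
Rpl35 (chr2:39005112-39005151, minus strand): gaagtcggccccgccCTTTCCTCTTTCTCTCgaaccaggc
Rpl15 (chr14:18270967-18271006, minus strand): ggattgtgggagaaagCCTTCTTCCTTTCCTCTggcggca
Rpl37a (chr1:72711240-72711279, plus strand): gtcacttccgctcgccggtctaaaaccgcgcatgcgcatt
Rpl9 (chr5:65391412-65391451, minus strand): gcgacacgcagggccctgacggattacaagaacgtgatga
Rps21, Rps18 and Rpl35 rose in ACC in both trained groups, Rpl15 has a long run and was lower in ACC after shock, Rpl37a has no run that begins within 5 bases of its start and was among the highest in ACC, and Rpl9 has none there and was lower in CA1. RefSeq gives Rps21 a second start, further downstream, without a run.

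Ribosomal protein mRNAs were higher in ACC 4 weeks after training, with or without shock, and were near the naive level in CA1 at 1 h. In ACC after context, 39 of 81 members rose and 1 fell at a deposited adjusted p under 0.05. Among all genes listed there, 9.37% were higher and 10.2% lower. In ACC after context plus shock, 41 of 83 members rose and 2 fell, against 19.8% of all genes higher and 21.8% lower. In CA1 after context 0 members rose and 1 fell (all genes, 4.62% higher and 3.41% lower), and in CA1 after context plus shock 0 rose and 2 fell (all genes, 3.21% and 2.84%). At an unadjusted p under 0.05, 0 members were higher and 8 lower in CA1 after context, and 2 higher and 2 lower after context plus shock. Shares over all genes at an unadjusted p are not given here, so these 4 counts have no background.

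The sizes were modest. The median log2 fold change of the members in the authors' deposited tables was 0.25 in ACC after context and 0.20 in ACC after context plus shock, beside 0.00 and 0.01 for all genes listed. In CA1 it was -0.03 after context and 0.02 after context plus shock. Values were above 0 for 71 of 81 members in ACC after context and for 76 of 83 after context plus shock. Both ACC comparisons use the same naive libraries, so a high or low naive level would enter both.

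**Figure D1:**
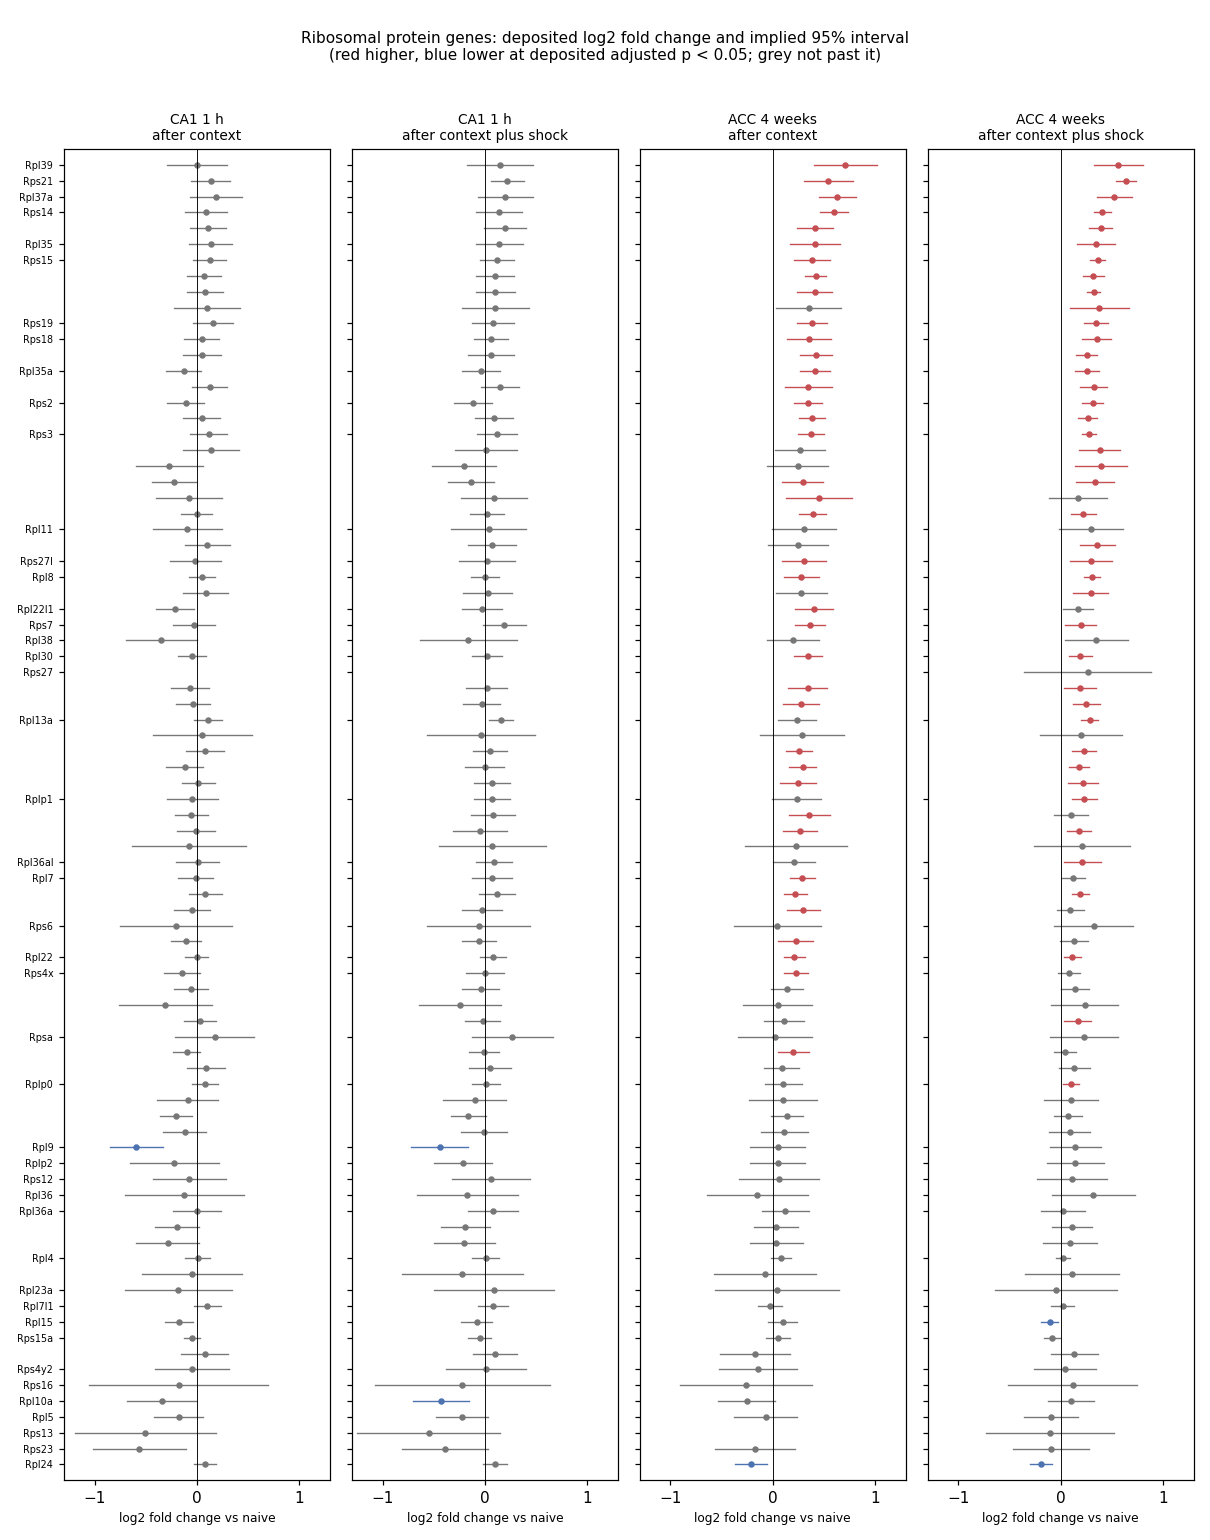
Deposited log2 fold change against naive mice (x axis) of each ribosomal protein gene (rows, ordered by their mean in ACC, with only some rows named) in the 4 comparisons, with the 95% interval implied by the deposited p. Red points are higher and blue points lower at a deposited adjusted p under 0.05, and grey points do not pass it; red is seen in the ACC panels, 39 and 41 genes, and in neither CA1 panel.

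Both subunits took part. In ACC after context, 20 of 46 large subunit genes rose and 1 fell, median log2 fold change 0.24, and 17 of 30 small subunit genes rose and 0 fell, with a median of 0.27. With context plus shock, 25 of 46 large subunit genes rose and 2 fell (median 0.21), and 14 of 32 small subunit genes rose and 0 fell (median 0.20).

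Among large subunit genes, Rpl39 and Rpl37a had the highest values. Rpl39, on chromosome X at 37082520 to 37085402 (mm10), encodes a very small protein lining the exit tunnel of the nascent chain. Its log2 fold change in the authors' deposited table was 0.71 in ACC after context (1.63-fold, implied 95% interval 0.40 to 1.02, adjusted p = 0.000154). With shock added it was 0.56 (1.48-fold, 0.32 to 0.80, adjusted p = 2.67e-05). In CA1 the deposited values of Rpl39 were 0.00 and 0.15 (adjusted p = 0.998 and 0.692). Rpl37a, on chromosome 1 at 72711260 to 72713809, encodes a zinc finger protein of the large subunit. Its deposited log2 fold change was 0.63 in ACC after context (1.55-fold, 0.45 to 0.81, adjusted p = 9.18e-10) and 0.52 after context plus shock (1.44-fold, 0.35 to 0.69, adjusted p = 2.19e-08). Rpl37a also had the highest value of the members in CA1 after context, 0.18 (-0.07 to 0.44, adjusted p = 0.443), which did not pass the test.

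Among small subunit genes, Rps21 and Rps14 were among those with the highest values and the smallest p. Rps21, on chromosome 2 at 180257377 to 180258445, was the highest member in ACC after context plus shock in the authors' deposited table, at a log2 fold change of 0.64 (1.56-fold, 0.54 to 0.74, adjusted p = 2.44e-32). After context alone its deposited value was 0.54 (0.30 to 0.78, adjusted p = 0.000194). In CA1 it was 0.13 after context and 0.22 after context plus shock (adjusted p = 0.462 and 0.0968). Rps14, on chromosome 18 at 60774510 to 60778546, encodes a platform protein and is the gene whose loss is known from the human 5q- anaemia. Its deposited log2 fold change was 0.60 in ACC after context (1.51-fold, 0.46 to 0.74, adjusted p = 1.40e-14) and 0.41 after context plus shock (1.33-fold, 0.33 to 0.49, adjusted p = 5.17e-22).

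The acidic stalk, through which elongation factors reach the ribosome, is made of Rplp0, Rplp1 and Rplp2. In ACC after context none of them passed the test: the deposited log2 fold changes were 0.11 for Rplp0, 0.24 for Rplp1 and 0.05 for Rplp2, with adjusted p-values of 0.463, 0.166 and 0.86. With shock added, Rplp0 rose by 0.10 (adjusted p = 0.0194) and Rplp1 by 0.23 (adjusted p = 0.00093) in the authors' deposited table, while Rplp2 had 0.15 (adjusted p = 0.433). Rpl5 and Rpl11, which bind Mdm2 when ribosome assembly is disturbed, did not pass the test in any of the 4 comparisons. For Rpl11 the deposited values in ACC were 0.31 and 0.30, with implied intervals that reach just below 0, and for Rpl5 they were -0.07 and -0.09. Rps6, the substrate of the S6 kinases, had 0.05 and 0.32 in ACC (adjusted p = 0.918 and 0.179), and Rpsa, which doubles as a laminin receptor, had 0.02 and 0.23 (adjusted p = 0.957 and 0.285). Base means of Rpl5, Rpl11, Rps6 and Rpsa were 26.9 to 122, and their intervals were wide.

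A few members lay below the naive level in ACC. The row named Rpl24 fell in both ACC comparisons, by 0.21 after context (-0.37 to -0.06, adjusted p = 0.0367) and by 0.20 after context plus shock (-0.30 to -0.09, adjusted p = 0.00149) in the authors' deposited tables. That row cannot be read as Rpl24 alone. Its Ensembl ID belongs in GENCODE M21 to the neighbouring gene Zbtb11, which encodes a zinc finger protein, and its deposited span on chromosome 16, from 55966275 to 56008913, takes in both genes on the same strand. Rpl15 fell by 0.11 after context plus shock (-0.19 to -0.02, adjusted p = 0.0385) and had 0.10 after context. The lowest values after context were those of Rps16 (-0.26, -0.90 to 0.38) and Rpl10a (-0.25, -0.53 to 0.03), neither past the test.

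Other rows also need care in their identity. The deposited span of Rpl13a, 10674 bases against 3204 in GENCODE M21, reaches over Flt3l, a cytokine gene on the same strand. The gene named Rps4y2 in the tables is Rps4l in GENCODE M21 and is annotated there as a transcribed processed pseudogene. Without Rpl24, Rpl13a and Rps4y2, 39 members were called in ACC after context and 41 after context plus shock; their median log2 fold changes were 0.25 and 0.20.

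Paralogues were set beside their parent genes. Rpl22 and Rpl22l1 can replace each other in the large subunit. Rpl22l1 rose by 0.40 in ACC after context (0.22 to 0.59, adjusted p = 0.000499), and its deposited value after context plus shock was 0.17 (adjusted p = 0.0557). Rpl22 rose by 0.21 (adjusted p = 0.0008) and by 0.12 (adjusted p = 0.0141) in the same tables. Rps27l, a p53 target, rose by 0.31 (adjusted p = 0.029) and by 0.30 (adjusted p = 0.0133), while Rps27, listed only after context plus shock, had 0.27 (adjusted p = 0.533) at a base mean of 10.6. Rpl7 rose by 0.29 after context (adjusted p = 7.55e-05) and had 0.13 after context plus shock (adjusted p = 0.06), whereas Rpl7l1, which acts in ribosome assembly, had -0.03 and 0.02. Rpl36al rose by 0.21 after context plus shock (adjusted p = 0.0421) and Rpl36a had 0.03. Rps4x rose by 0.23 after context (adjusted p = 0.00119), and Rps4y2 had -0.14 (adjusted p = 0.669). Differences between the genes of a pair were not tested.

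In CA1 the 2 genes that fell share most of their sequence with other annotated genes. Rpl9 fell by 0.59 after context (1.51-fold lower, -0.85 to -0.34, adjusted p = 0.00059) and by 0.44 after context plus shock (1.36-fold lower, -0.72 to -0.16, adjusted p = 0.0371) in the authors' deposited tables. Only 6.68% of the 50-base stretches of its principal transcript are found in no other annotated gene. Its named pseudogene Rpl9-ps7, at a base mean of 14.4 and 12.9, had deposited values of -0.48 and -1.07 (adjusted p = 0.388 and 0.0436). Rpl10a fell by 0.43 after context plus shock (-0.70 to -0.16, adjusted p = 0.0375) and had -0.34 after context (adjusted p = 0.227), with 11.9% of its stretches unique. Rps13 and Rps23 were also among the lowest, at -0.50 and -0.57 after context and -0.55 and -0.39 after context plus shock, at base means of 15.9 to 37.8 and with no call. The highest member after context plus shock was Rpsa, at 0.27 (adjusted p = 0.509). Over the 39 listed members with under 50% unique stretches the median deposited log2 fold change in CA1 after context was -0.07, and over the 41 with more it was 0.01; 0 of these 41 were called in either CA1 comparison.

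In ACC the rise was seen in members of either kind. Among the 41 members with at least 50% unique stretches, 24 rose in each ACC comparison, with medians of 0.25 after context and 0.22 after context plus shock. Among those with less, 15 of 38 rose after context (median 0.25) and 17 of 40 after context plus shock (median 0.19). Calls were more often of abundant members: with a base mean of at least 500, 28 of 38 members rose after context and 25 of 39 after context plus shock, and with a base mean under 100, 1 of 17 rose in each. Shares over all genes at these base means are not given here, so these counts describe the members only. The median of the members under 100 was 0.05 after context and 0.20 after context plus shock. For members with a base mean of at least 500 the medians were 0.29 and 0.19.

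**Figure D2:**
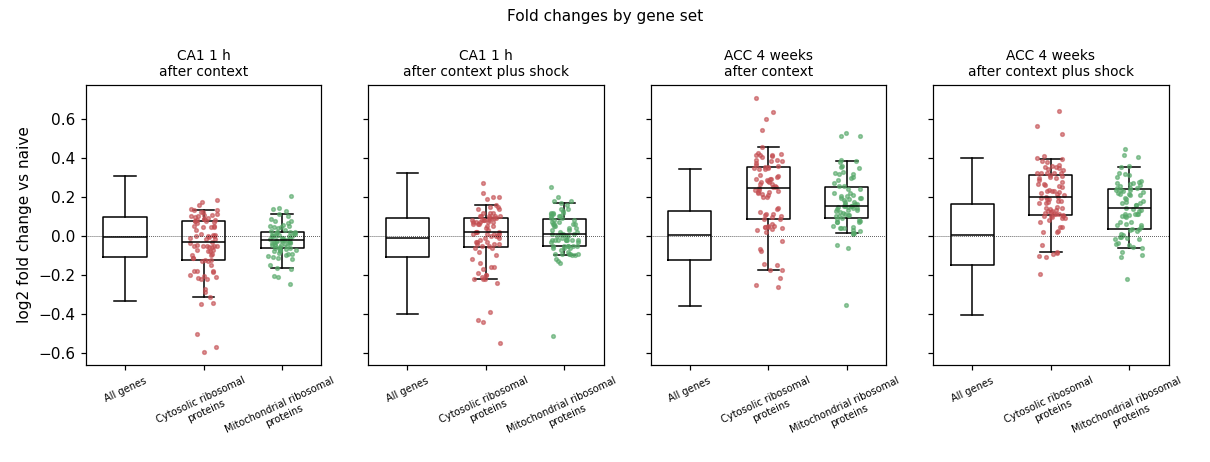
Deposited log2 fold changes against naive mice (y axis) of all genes, cytosolic and mitochondrial ribosomal protein genes in the 4 comparisons. Boxes give the quartiles and median, whiskers the 5th and 95th percentile, and points single genes; in the ACC panels both ribosomal sets lie above the median of all genes.

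Transcript length moved with the fold change in ACC over the whole table, and ribosomal protein mRNAs are short. Of the members with a length, 66 lay in the shortest 20 percent of genes, up to 1945 nt in the table for context and 1926 nt in that for context plus shock. The other genes of that length class had a median deposited log2 fold change of 0.15 in ACC after context, with 21.9% higher, and of 0.15 after context plus shock, with 33.7% higher. In the longest 20 percent of genes the medians were -0.14 and -0.16. Across all genes with a length, Spearman's rho of fold change and length was -0.49 after context (15135 genes) and -0.45 after context plus shock (15310 genes). Genes share libraries and are not replicates, so no p is given. Members in the shortest class had medians of 0.25 and 0.21. GC content moved with the fold change too, with a rho over all genes of 0.17 and 0.49.

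With the trend on length and GC content over all genes removed, 20 members were higher and 0 lower in ACC after context, with a median of 0.12. After context plus shock 18 were higher and 0 lower, with a median of 0.06. On this scale 840 of the 15270 genes listed were higher and 651 lower after context. After context plus shock 1912 of 15455 were higher and 1821 lower. With the trend taken from genes with a base mean of at least 100, 11 and 15 members were higher, with medians of 0.05 in both. Counts over all genes under this version are not given here, so it has no background share. Of the genes called from the deposited values, 11 stayed called in the same direction under both versions after context, among them Rpl22l1, Rpl30, Rpl34, Rpl35a, Rpl37a, Rps14, Rps19, Rps20, Rps24 and Rps3. With shock added 13 did, among them Rpl10, Rpl27a, Rpl30, Rpl35a, Rpl39, Rps14, Rps18, Rps19, Rps21, Rps28 and Rps3. Rps14, Rps19, Rps3, Rpl30 and Rpl35a are in both lists. The part of length and GC content in the rise was not tested further.

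**Figure D3:**
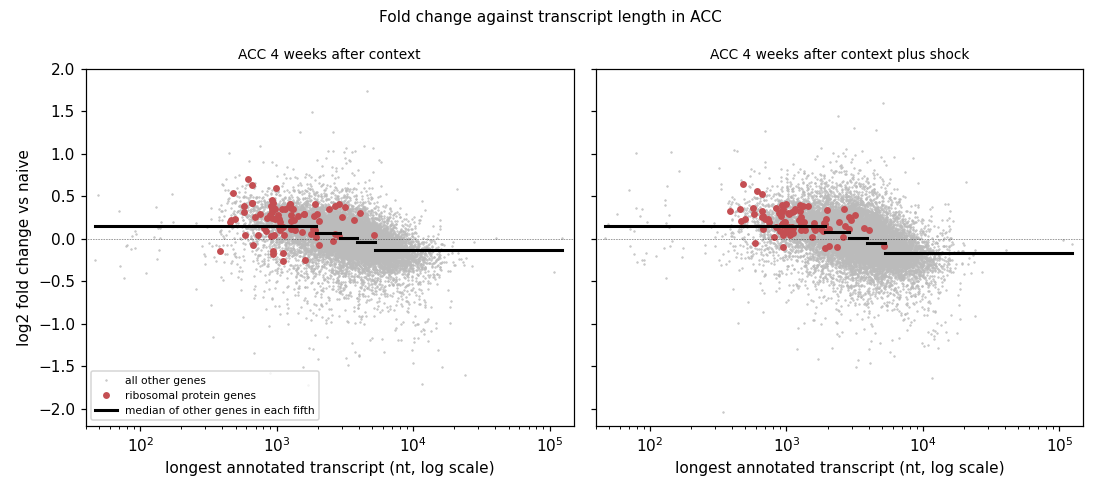
Deposited log2 fold change in ACC (y axis) against the length of the longest annotated transcript in nt (x axis, log scale) for ribosomal protein genes (red) and all other genes (grey). Black lines are medians of the other genes in 5 length classes of equal size, from 0.15 in the shortest to -0.14 and -0.16 in the longest; most red points lie in the shortest class.

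Shock was compared with context as a difference of fold changes, with errors that ignore the shared naive mice. The difference of the deposited log2 fold changes, shock minus context, was called for 0 of 82 members in CA1 and 0 of 81 in ACC, with p adjusted over all genes. Over all genes 0.00665% were called in CA1 and 1.59% in ACC. At an unadjusted p under 0.05, 0 members differed in CA1 and 2 in ACC. These were Rpl15 (-0.20, 95% interval -0.37 to -0.03, adjusted p = 0.289) and Rps14 (-0.19, -0.35 to -0.03, adjusted p = 0.314), both lower with shock. With a correlation of 0.5 between the fold changes for their shared naive mice, 2 members in ACC were called. Shares over all genes at the unadjusted p and with this correlation are not given here. In size the differences in ACC ranged up to 0.47, for Rpl36 (-0.17 to 1.11), and those of Rps16 (0.38, -0.52 to 1.28) and Rpl10a (0.36, -0.01 to 0.72) followed. In CA1 Rpl23a (0.27, -0.52 to 1.06), Rps7 (0.22, -0.07 to 0.51) and Rpl38 (0.19, -0.40 to 0.78) were farthest apart. The median difference was 0.04 in CA1 and -0.02 in ACC. These intervals leave room for differences of the size of the rise itself in many members.

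The fold changes in ACC were higher than those in CA1. ACC minus CA1 was called higher for 26 of 81 members after context and lower for 1, the Rpl24 row, with a median difference of 0.28; over all genes 5.52% were higher and 8.89% lower. After context plus shock 10 of 82 were higher and the Rpl24 row was lower (median 0.20), against 10.8% and 14.2% of all genes. The 10 of 82 members are thus near the share over all genes. Rpl35a differed by 0.54 after context (0.32 to 0.77, adjusted p = 0.000103), from -0.13 in CA1 to 0.41 in ACC. Rps2, of the small subunit near the mRNA entry, differed by 0.43 after context plus shock (0.22 to 0.65, adjusted p = 0.000681), from -0.12 to 0.31. With the trend on length and GC content removed from both regions, 2 members differed after context and 3 after context plus shock. The share over all genes on that scale is not given here.

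The level of the members was compared per kilobase of the longest annotated transcript, as base mean per kilobase. In the table of ACC after context plus shock, Rpl4 was highest (5904), followed by Rps15 (5739) and Rplp1 (5540), then Rps21 and Rpl8. The median member had 301. The lowest were Rps13 (5.02), Rps27 (15.7) and Rps12 (25.2). On the same scale Rpl4 was also highest in the other 3 tables, at 5378 to 5528. The highest and the lowest gene differed by a ratio of 1177, though their proteins enter the ribosome in equal number. The ratio was 258 in ACC after context, where Rps13 is not listed. With the length of the principal transcript in its place it was 326 in ACC after context plus shock. The order of the genes changed too: Rps21 was then highest in CA1 after context plus shock and Rps15 in the other 3 tables, and Rpsa was lowest in all but that of ACC after context plus shock, where Rps13 was.

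The level moved with how much of a transcript is unique. Across 81 members in the table of ACC after context plus shock, Spearman's rho between the base mean per kilobase and the percentage of unique stretches was 0.50. The median base mean per kilobase was 540 for the 41 members with at least 50% unique stretches and 186 for the 40 with less. In Rps13 17.0% of the stretches were unique, in Rps27 1.35% and in Rps12 16.4%, while Rpl4 had 83.5% and Rpl8 93.5%. Rpsa went the other way: 56.0% of its stretches were unique, and it was lowest in ACC after context (21.4). How the authors treated reads that match several genes is not given in the sources used here, and its part in these levels was not tested. The 10 named pseudogenes in the tables had base means of up to 101.

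**Figure D4:**
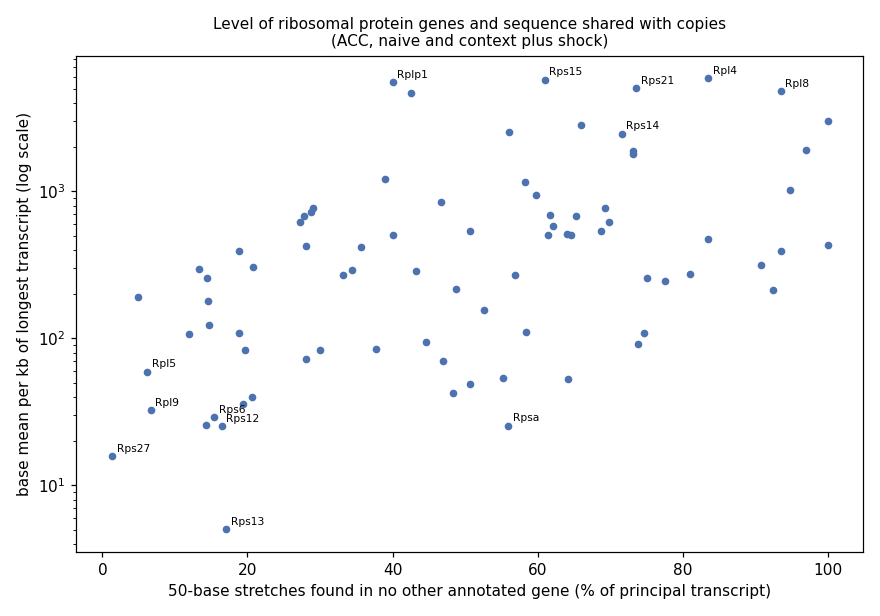
Base mean per kilobase of the longest transcript (y axis, log scale) of ribosomal protein genes in the table of ACC after context plus shock, against the percentage of 50-base stretches of the principal transcript found in no other annotated gene (x axis). Points are genes. Rps13 and Rps27, which have few unique stretches, lie lowest, and Rpl4 at 5904 lies highest.

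Exonic bins of members were rarely listed. For CA1, 0 bins of a member were listed, and 0.0481% and 0.0582% of all bins were called after context and after context plus shock. In ACC 1.79% and 0.984% of all bins were called. Only bins past a threshold are listed. The total of bins behind these shares is implied and not among the deposited values (210048 and 209445 in CA1, 209124 and 214083 in ACC). Bin E002 of Rps15a, a small subunit gene, fell relative to its gene by 0.16 after context (adjusted p = 0.00137) and by 0.16 after context plus shock (adjusted p = 8.05e-05) in the authors' deposited tables. Bin E008 of Rps4x was listed after context plus shock at -0.25 and did not pass 0.05 (adjusted p = 0.084). The bins were not placed on the genome here.

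Fold changes were also set beside the pyrimidine run at the start. Members with a run within 5 bases of the annotated start had a median deposited log2 fold change of 0.26 in ACC after context (14 of 28 rose), and those without had 0.21 (14 of 31 rose). After context plus shock the medians were 0.22 (14 of 29 rose) and 0.18 (16 of 32 rose). No test was made of this split.

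Mitochondrial ribosomal protein genes, whose products build the separate ribosome of mitochondria and which carry other names, moved in the same direction. In ACC, 27 of 75 rose (36%) and 0 fell after context (median 0.15), by the authors' deposited tables. After context plus shock 36 rose (48%) and 1 fell (1.33%), with a median of 0.14. All genes had 9.37% higher and 10.2% lower, then 19.8% and 21.8%. Mrpl33 rose by 0.51 after context (adjusted p = 3.22e-11) and Mrpl28 by 0.40 after context plus shock (adjusted p = 1.25e-16). In CA1 0 of 75 were called in either comparison, where all genes had 4.62% and 3.41%, then 3.21% and 2.84%. With the trend on length and GC content removed, 12 were higher and 0 lower in ACC after context. After context plus shock 16 were higher and 1 lower. Of all genes on that scale, 840 of 15270 were higher and 651 lower after context. After context plus shock 1912 of 15455 were higher and 1821 lower.

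Elongation factors and other genes with TOP mRNAs rose more often than they fell in ACC. Of 21, 10 rose (47.6%) and 1 fell (4.76%) after context, with a median of 0.16. All genes had 9.37% and 10.2%. After context plus shock 8 rose (38.1%) and 3 fell (14.3%), with a median of 0.08, against 19.8% and 21.8% of all genes. Eif3k, a subunit of initiation factor 3, rose by 0.35 (adjusted p = 8.30e-08) and by 0.31 (adjusted p = 4.72e-14). Pabpc1, the cytoplasmic poly(A) binding protein and itself a TOP mRNA, fell by 0.27 (adjusted p = 5.54e-08) and by 0.37 (adjusted p = 9.23e-21). In CA1 Nap1l1, a histone chaperone, fell by 0.15 after context (adjusted p = 0.0399) and was the 1 call among these 21 genes; after context plus shock 0 were called.

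Of 34 initiation factors, 7 were higher (20.6%) and 6 lower (17.6%) in ACC after context, and 8 were higher (23.5%) and 10 lower (29.4%) after context plus shock. All genes had 9.37% and 10.2% after context, lower than the shares of this list. After context plus shock the shares are near those of all genes, 19.8% and 21.8%. Eif4a1, the helicase of the cap complex, rose by 0.30 (adjusted p = 0.000164) and by 0.25 (adjusted p = 6.66e-05), whereas Eif4g2, a relative of the cap complex scaffold, fell by 0.21 (adjusted p = 0.00809) and by 0.30 (adjusted p = 5.70e-14). Eif4ebp2, the main brain repressor of cap-dependent translation, was the 1 gene of the list called in CA1. It rose there by 0.60 after context (adjusted p = 5.82e-05) and by 0.46 after context plus shock (adjusted p = 0.0118), and fell in ACC by 0.34 (adjusted p = 0.0043) and by 0.36 (adjusted p = 6.48e-05).

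Of 48 ribosome biogenesis genes, 6 rose (12.5%) and 3 fell (6.25%) in ACC after context, and 14 rose (29.2%) and 11 fell (22.9%) after context plus shock. All genes had 9.37% and 10.2%, then 19.8% and 21.8%, so the counts say little about the list. Ncl, which encodes nucleolin, fell by 0.25 (adjusted p = 0.00624) and by 0.37 (adjusted p = 1.75e-09), and Polr1c, a subunit shared by RNA polymerases I and III, rose by 0.31 (adjusted p = 0.000443) and by 0.30 (adjusted p = 3.91e-06). In CA1 2 rose (4.17%) and 1 fell (2.08%) after context, and 1 rose (2.08%) after context plus shock. All genes in CA1 had 4.62% and 3.41%, then 3.21% and 2.84%. Ubtf, which recruits RNA polymerase I to ribosomal DNA, rose there by 0.28 (adjusted p = 3.10e-06) and by 0.22 (adjusted p = 0.00325).

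Of 30 genes of mTORC1 signalling, 5 rose (16.7%) and 6 fell (20%) in ACC after context, where all genes had 9.37% and 10.2%. After context plus shock 9 rose (30%) and 12 fell (40%), against 19.8% and 21.8% of all genes. Sesn3, an inhibitor of mTORC1, rose in CA1 by 0.69 (adjusted p = 7.70e-05) and by 0.54 (adjusted p = 0.00505) and fell in ACC by 0.55 (adjusted p = 6.73e-08) and by 0.50 (adjusted p = 2.89e-07). Rps6kb2, an S6 kinase, had -0.42 and -0.57 in CA1 (adjusted p = 0.0474 and 0.0161), -0.11 in ACC after context (adjusted p = 0.575) and 0.55 in ACC after context plus shock (adjusted p = 1.27e-16). Lamtor2, of the lysosomal anchor of mTORC1, rose by 0.39 (adjusted p = 1.68e-06) and by 0.35 (adjusted p = 1.34e-09) in ACC.

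Cell type markers were counted in the same tables, where 9.37% of all genes were higher and 10.2% lower in ACC after context, and 19.8% and 21.8% after context plus shock. Of 15 microglial markers, 9 rose and 0 fell in ACC after context (median 0.23), and 6 rose and 0 fell after context plus shock (median 0.08). Of 17 endothelial and pericyte markers, 2 rose and 12 fell in ACC after context plus shock (median -0.29), while 1 rose and 0 fell after context. Of 15 neuronal markers, 3 were higher (20%) and 2 lower (13.3%) after context. After context plus shock 5 were higher (33.3%) and 4 lower (26.7%). These shares are above those of all genes in both directions, on few genes. Of 12 astrocyte markers 3 rose and 1 fell, then 2 rose and 4 fell, and of 13 oligodendrocyte markers 0 were called after context and 4 rose and 2 fell after context plus shock. Of 14 striatal and thalamic markers 5 rose and 2 fell after context and 5 rose and 3 fell after context plus shock. In CA1, where 0 ribosomal protein genes rose, 4.62% of all genes were higher and 3.41% lower after context. After context plus shock the shares there were 3.21% and 2.84%. Of the 17 endothelial and pericyte markers, 8 rose and 1 fell in CA1 after context, and 6 rose and 0 fell after context plus shock. Of 11 cortical markers, 0 rose and 1 fell in CA1 after context, and 1 rose and 4 fell after context plus shock. The part of these shifts in the ribosomal protein values was not tested.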

How the data were processed

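RNA-seq libraries of polyadenylated RNA were made with the TruSeq v2 kit after Tri Reagent extraction, per the labels' protocols. The build is mm10 and the tools are DESeq2, SAMtools, STAR 2.3.0e and CASAVA 1.8.2, per the submitters' processing notes. Not given in the sources used here are the gene annotation, the counter, the strand and the treatment of reads with several matches. Per the file headers, the authors deposited 4 measures per gene and comparison, and the same for exonic bins. In the deposited tables these are the base mean (a signal: normalised counts averaged over libraries), the log2 fold change, and the p-value before and after adjustment. No value per library is in these tables, so depth is unknown and no SD can be given. P-values measure the spread between libraries as the authors fitted it.

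Ribosomal protein genes were taken by name and joined by Ensembl ID. The members and the gene lists were chosen with earlier results of these data known. Calls use a deposited adjusted p under 0.05. The deposited adjusted p equals a Benjamini-Hochberg adjustment to within 0.00216. The direction of the fold change is not in the headers and was checked from base means: the log2 ratio of the base means of a region's tables rose with the difference of their fold changes (slope 0.47 in CA1, 0.52 in ACC), so that positive is higher in trained mice. The error of a log2 fold change was implied by dividing its size by the normal score of the deposited p, as for a Wald test. In the CA1 table after shock, which is rounded, changes under 0.05 took the context error times 1.08. Differences between comparisons used the root of the summed squared errors and were adjusted over all genes. The longest GENCODE M21 transcript gave length and GC content (99.1% of genes matched), and their trend over all genes was removed with splines of 5 knots as an alternative. For uniqueness, each 50-base stretch of a member's principal transcript was looked for in all other GENCODE genes. Only the test of differences between comparisons was run on simulated fold changes. Their errors were independent, so the simulation does not cover the naive mice shared within a region. Python 3.11.15, numpy 2.4.6, scipy 1.17.1, pandas 2.3.3 and scikit-learn 1.9.0 were used. Named genes were the 3 highest, 3 lowest and 3 smallest p per comparison, the 3 whose shock and context changes differed most in each region, the 5 highest and 3 lowest levels, paralogue pairs, members with a listed exonic bin, the stalk proteins, Rpsa, Rps6, Rpl5 and Rpl11, and up to 2 genes per list and comparison. Rps18, Rpl35, Rpl35a, Rps2 and the genes that stayed called with the length trend removed were named after their values were seen. Some genes that meet this rule are not reported here. Protein sequences were not used here.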

Additional observations from a re-analysis of the deposited data

Results flagged for a closer look

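For some ribosomal protein genes the fold change differed between regions by a test of the difference itself. After context the difference between ACC and CA1 was called for 27 of 81 members (26 higher in ACC, 1 lower) and after context plus shock for 11 of 82 (10 higher, 1 lower), with region and time after training changing together. Over all genes the difference was called higher for 5.52% and lower for 8.89% after context, and for 10.8% and 14.2% after context plus shock, so that the 10 members higher after context plus shock are near the share of all genes. With the trend on length and GC content removed from both regions, 2 and 3 members were called, and the share over all genes on that scale is not given here. After context the smallest p-values were those of Rpl35a (0.54 higher in ACC on the log2 scale), Rpl22l1 (0.62 higher, from -0.22 in CA1 to 0.40 in ACC) and Rps14 (0.51 higher). After context plus shock they were those of Rps21 (0.42 higher), Rps2 (0.43 higher) and Rpl8 (0.31 higher, from 0.00 to 0.31). No values per library were at hand, so samples far from their group could not be looked for.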

How the results depend on the processing

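Of 98 alternative values, 72 kept their count within 1.5 times or their median within the members' median error. In ACC, called members after context numbered 40, then 20 once the trend on length and GC was removed, 11 with the trend of genes with a base mean of at least 100 and 24 with at least 50% unique stretches; the median of 0.25 became 0.118 and 0.0507 under the trends. After context plus shock, 43 became 27 at an absolute log2 fold change of at least 0.25, 18 and 15 under the trends and 25 with unique stretches, and the median of 0.20 became 0.0598 and 0.0507. In CA1, 1 call after context became 3 at an adjusted p under 0.1 and 0 without members that have a named pseudogene, or with at least 50% unique stretches; 2 calls after context plus shock became 0 at 0.01, 4 at 0.1, and 0 with the trend removed, without named pseudogenes and with unique stretches. Shock minus context in ACC went from 0 to 2 calls with a correlation of 0.5. ACC minus CA1 went from 27 to 2 after context and from 11 to 3 after context plus shock with the trend removed. The ratio of the highest to the lowest level went from 800 to 260 and from 788 to 254 in CA1 and from 1177 to 326 in ACC after context plus shock with the principal transcript's length, and from 258 to 391 in ACC after context with the median length. Apart from the trends, whose construction takes out what length and GC content share with the fold change, the cause was not tested. The unique stretches, the trend of genes with a base mean of at least 100, the principal length and the set without Rpl24, Rpl13a and Rps4y2 were chosen after seeing the data.

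No paired analysis was possible because the tables hold no values per library, and leaving out a replicate was not run for the same reason. Depth is unknown.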
